A study of Mus musculus with 12 samples.

Results

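Follistatin (FST) is a secreted protein that binds Activins and several related ligands and keeps them from their receptors. The comparison described here sets 3 libraries of FST-overexpressing cochlear organoids against 3 control libraries, chosen by the treatment label, out of 12 libraries in the series. All genes entered the comparison. The cells were cochlear epithelial cells of mice at 5 days of age, grown in Matrigel for 7 days of expansion with EGF, FGF2, the GSK3 inhibitor CHIR99021 and the histone deacetylase inhibitor VPA. Every culture, controls included, received doxycycline at 0.5 μg/ml. Per the study's methods, FST mice carried a doxycycline-responsive (TRE) transgene for human FST, form FST-288, and 1 copy of the R26 rtTA*M2 driver, controls were littermates with the driver alone, both sexes were used, and the 3 libraries of a condition came from 3 animals. The other 6 libraries were LIN28B and FST+LIN28B organoids, 3 each, whose mice carried a Col1a1-TRE-LIN28B transgene for human LIN28B on the same driver, without or with the FST transgene. The driver sits at the Rosa26 locus, which is active in most cell types, and whole cultures were sequenced. Fewer cells of a type therefore cannot be told apart from less RNA per cell, and p-values measure the spread between these libraries.

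Ligands of the TGF-β superfamily fall into branches. Activins, TGF-βs and some growth and differentiation factors signal through type I receptors that phosphorylate SMAD2 and SMAD3, while bone morphogenetic proteins (BMPs) act mostly through SMAD1, SMAD5 and SMAD9. Phosphorylated SMADs switch on genes for their own inhibitors, among them inhibitory SMADs, membrane proteins that trap receptor SMADs and nuclear corepressors, and such genes are commonly read as feedback of the pathway. In the developing cochlea, Activin and follistatin oppose each other in the timing of hair cell differentiation. Supporting cells surround the hair cells and are the main source of organoids of this kind.

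Values are CPM, estimated read counts summed per gene and given per 1e6 counts of a library size normalized by the trimmed mean of M-values (TMM). Library totals were 58.2, 54.4 and 59.4 M estimated counts (M for 1e6) in control replicates 1, 2 and 3 and 64.8, 42.7 and 63.0 M in FST replicates 1, 2 and 3. Replicates of a condition have no order. The sources used here do not say that a number shared by a control and an FST library marks a pair. The epithelial marker gene Epcam lay between 678 and 1024 CPM in the 6 libraries, Gata3, a transcription factor gene of the otic epithelium, between 73.0 and 88.5, and Sox2, a supporting cell and progenitor factor gene, between 32.9 and 55. Of the markers of other cells, the hemoglobin gene Hba-a1, the endothelial cadherin gene Cdh5 and the neuronal gene Rbfox3 stayed at or below 0.101 CPM, while the erythroid gene Alas2 had 1.11 to 6.78 CPM, the endothelial gene Pecam1 10.4 to 22.7 CPM and the myelin gene Mbp 61.7 to 69.8 CPM. Summed Schwann cell markers were at 223 to 273 CPM in control and 219 to 305 CPM in FST. Summed markers of endothelial cells were at 30.0 to 45.7 CPM in control and 50.7 to 59.8 CPM in FST, and those of melanocytes and stria at 12.6 to 13.3 and 14.8 to 19.2 CPM. Tek, a receptor gene in the endothelial sum, had 15.3, 31.8 and 21.3 CPM in control and 44.4, 25.9 and 38.5 CPM in FST. Over the 4 tested endothelial markers, the median log2 difference from the control mean was −0.25, 0.94 and −0.23 in FST replicates 1, 2 and 3. Over the 5 tested melanocyte and stria markers it was −0.05, 0.66 and 0.18. Y-linked genes were expressed in 2 of 3 control libraries and 2 of 3 FST libraries. Their sum was 169, 9.97 and 189 CPM in LIN28B and 8.35, 9.39 and 206 CPM in FST+LIN28B replicates 1, 2 and 3. The mix of sexes therefore differed between LIN28B and FST+LIN28B. FST replicate 2 stood apart. Its log2 CPM correlated with the other 5 libraries at 0.954 to 0.974, against 0.979 to 0.988 among those 5, and in a fit that weights libraries by their quality (limma voom) it had a weight of 0.0945 against 1.05 to 2.29. It is described in its own paragraphs, and values without it are given beside several results.

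Fst was read first because it checks the labels. Fst was at 13.1, 7.96 and 7.72 CPM in the control libraries and at 445, 116 and 326 CPM in the FST libraries. Every FST library lay above every control library, and FST replicate 2 carried the least of the 3. The mean rose from 9.60 ± 3.06 to 296 ± 166 CPM (SD, n = 3), which is 30.8-fold, with a log2 fold change of 4.94 (SE 0.54) and an edgeR adjusted p of 0.011. The gene lies on chr13:114452290-114458951 of GRCm38, on the minus strand. The transgene is human and the index held mouse transcripts, so the count can combine mouse Fst reads with human FST reads that match the mouse sequence.

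The rise was not spread evenly over the 6 annotated mouse Fst transcripts. On the 3 coding transcripts Fst-201, Fst-204 and Fst-205 together, the control libraries had 3.9, 2.67 and 1.55 CPM and the FST libraries 433, 110 and 318 CPM. Those transcripts held 20.02% to 33.5% of the Fst counts in controls and 94.6% to 97.4% in FST. Fst-202, the longest coding transcript at 2833 bases, showed no such difference, with 7.34, 4.02 and 4.45 CPM in controls and 10.2, 3.37 and 7.47 CPM in FST. Its groups overlapped, and the means of 5.27 ± 1.81 and 7.00 ± 3.42 CPM (SD, n = 3) had an exact two-sided permutation p of 0.6, in a design whose smallest possible p is 0.1. Counts on single transcripts are estimates that share reads among overlapping transcripts.

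**Figure D1:**
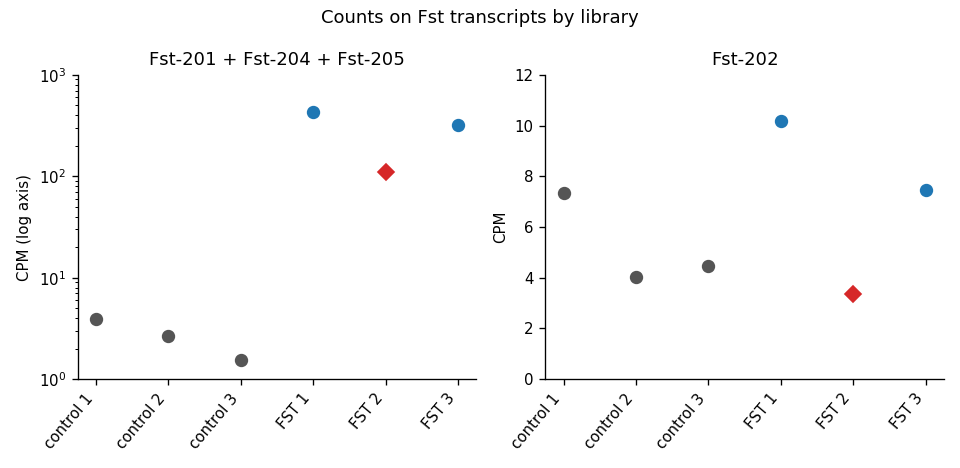
CPM on Fst transcripts in each control library (gray) and FST library (blue circles, with FST replicate 2 as a red diamond), 1 point per library. The left panel, on a log axis, sums Fst-201, Fst-204 and Fst-205 and shows FST libraries between 110 and 433 CPM above controls at 3.9 or less. The right panel shows Fst-202, where the groups overlap.

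Outside the transgene, few genes passed the test. With edgeR's quasi-likelihood test and a Benjamini-Hochberg adjusted p under 0.01, 4 of 18780 genes were called (0.0213%), and the 4 were all lower in FST, while Fst itself was at 0.011 with all libraries and at 0.0068 without FST replicate 2. At an adjusted p under 0.05 there were 14 genes (0.0745%), of which 11 were lower (0.0586%) and 3 higher (0.016%). A fit of the 6 control and FST libraries alone, with fewer libraries to estimate the spread, left 2 genes at 0.05, both lower, which were Mfap2 of the 14 and the predicted gene Gm5898, named after its values were seen. Each of the 14 had its 3 FST libraries entirely on one side of the 3 controls. Over all genes tested, 889 had FST wholly above control (4.73%) and 547 wholly below (2.91%). At an unadjusted p under 0.05 there were 702 genes, fewer than the 939 that a share of 0.05 would give. DESeq2 called 69 genes at 0.01, 31 higher and 38 lower, and all 14 genes were among them. Among them were also Ldlrad4, Skil, Smad7, Bmp2, Col9a3, Fbln5, Lgr5 and Igfbpl1, described below with edgeR values above 0.05. On data simulated for this comparison DESeq2 made 17 false calls at 0.01 and edgeR 1. For each fold change of 1.5, 2, 4 and 8, 50 genes were changed, and DESeq2 recovered 22%, 76%, 96% and 98%. The simulated scatter came from edgeR's estimates, and no library stood apart as FST replicate 2 does. The simulation therefore does not give the share of false calls among the 69. Leaving out 1 library at a time gave between 1 and 5 calls at 0.01, with 1 without control replicate 2 or control replicate 3 and 2 without control replicate 1, LIN28B replicates 1 or 3 or FST+LIN28B replicates 1 or 3.

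Mfap2 was the most firmly lowered gene with a role in the matrix. It encodes a microfibril-associated glycoprotein of fibrillin fibers that can bind ligands of the TGF-β superfamily. Control libraries had 25.1, 25.8 and 25.2 CPM and FST libraries 5.41, 4.56 and 6.02 CPM. The controls hardly differed from each other, and FST replicate 2 fell in with the other FST libraries. Mfap2 fell to 21% of control, a log2 fold change of −2.25 (SE 0.21, edgeR adjusted p = 0.0016). The gene lies on chr4:141010418-141015984 (GRCm38, plus strand).

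Col2a1 encodes the type II collagen chain of cartilage and the tectorial membrane. Its CPM were 1023, 1404 and 1058 in control and 446, 306 and 325 in FST, and the highest FST library lay far below the lowest control. The log2 fold change was −1.69 (SE 0.19, edgeR adjusted p = 0.0064). Pmepa1, a TGF-β-induced membrane protein gene whose product traps SMAD2 and SMAD3, had 14.4, 14.2 and 13.7 CPM in control and 5.6, 7.02 and 6.16 CPM in FST. Both groups were tight, and the log2 fold change was −1.17 (SE 0.14, edgeR adjusted p = 0.0077). Col2a1 lies on chr15:97975602-98004695 and Pmepa1 on chr2:173224458-173276533, both on the minus strand of GRCm38. Leaving out single libraries moved these calls. Of the 12 libraries left out in turn, Mfap2 stayed under an edgeR adjusted p of 0.01 for 9 and reached up to 0.0128 without control replicate 2, control replicate 3 or FST replicate 2. Col2a1 stayed under 0.01 only without FST replicate 1 (0.0037) or LIN28B replicate 2, and Pmepa1 only without FST replicate 2 (0.0068) or FST+LIN28B replicate 2 (0.0064). The highest adjusted p over the others was 0.0437 for Col2a1 and 0.0586 for Pmepa1, without control replicate 2 and control replicate 1.

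The fourth call was AC117239.2, a single-exon annotation of 515 bases on chr18:47112139-47112653 (GRCm38, plus strand). The control libraries had 2399, 1314 and 1445 estimated counts and the FST libraries 0, 10 and 4. A count of 0 in FST replicate 1 allows up to 3 counts, or 0.0479 CPM. In CPM the controls were at 40.2, 24.4 and 23.9 and the FST libraries at 0, 0.216 and 0.0673, and the fitted log2 fold change of −8.40 (SE 0.54, edgeR adjusted p = 0.00011) depends on the prior count that edgeR adds. Of its 485 distinct 31-base words, the length kallisto matches, 334 (68.9%) also occur in transcripts of Hspe1, a mitochondrial chaperonin gene, so reads can be shared between the 2 and the level of each is uncertain. Hspe1 was at 59.1, 92.3 and 90.9 CPM in control and 129, 73.0 and 130 CPM in FST. The sum of both was 99.3, 117 and 115 CPM in control and 129, 73.2 and 130 CPM in FST, and the groups overlapped.

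Further genes of ligands, matrix and signaling passed only at an adjusted p under 0.05. Tgfb2, which encodes the TGF-β2 ligand, had 736, 718 and 735 CPM in control and 379, 428 and 440 CPM in FST, a log2 fold change of −0.81 (SE 0.13, edgeR adjusted p = 0.047). Its 3 control libraries were nearly equal. Scx, a transcription factor gene of tendon progenitors, had 12.3, 13.4 and 11.1 CPM against 2.89, 4.15 and 4.93 CPM (−1.62, SE 0.25, edgeR adjusted p = 0.043). Htra1, a secreted serine protease gene, had 5.72, 3.88 and 3.88 CPM against 0.894, 0.907 and 1.61 CPM (−1.97, SE 0.27, edgeR adjusted p = 0.028). The FST libraries of these genes stayed well below the lowest control.

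Cnr1, the cannabinoid receptor 1 gene, had 11.6, 12.2 and 17.9 CPM in control and 5.33, 4.38 and 5.27 CPM in FST (−1.47, SE 0.21, edgeR adjusted p = 0.028). Rflnb, which encodes the filamin-binding protein refilin B, had 143, 132 and 117 CPM in control and 44.7, 44.4 and 77.5 CPM in FST (−1.23, SE 0.18, edgeR adjusted p = 0.031). Its FST replicates 1 and 2 were nearly equal, and replicate 3 lay between them and the controls. Ptpru, a receptor tyrosine phosphatase gene, went from a mean of 110 ± 7.43 to 72.3 ± 3.82 CPM (SD, n = 3), with edgeR adjusted p = 0.028. Plekhh1, which encodes a protein with pleckstrin homology domains, showed the smallest log2 fold change of the 14. It had 79.4, 83.9 and 80.7 CPM in control and 57.8, 58.4 and 57.3 CPM in FST (−0.49, SE 0.07, edgeR adjusted p = 0.028).

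Beside Fst, 2 genes were higher at that threshold. Rasd2, a small GTPase gene known from striatal neurons, had 7.70, 8.76 and 9.89 CPM in control and 22.6, 15.8 and 17.1 CPM in FST (1.08, SE 0.15, edgeR adjusted p = 0.028). A2ml1, a protease inhibitor gene of the α2-macroglobulin family, had 1.88, 2.45 and 2.73 CPM in control and 9.85, 12.4 and 6.14 CPM in FST (2.01, SE 0.29, edgeR adjusted p = 0.031). FST replicate 2 was the lowest FST library for Rasd2 and the highest for A2ml1. Without FST replicate 2, 11 of the 14 genes remained under 0.05, and Cnr1, Rflnb and Scx were at 0.0514, 0.0551 and 0.0577. Each of the 12 libraries was also left out in turn, and the number of times a gene stayed under 0.05 was 12 for AC117239.2, Mfap2 and Col2a1, 10 for Pmepa1, 9 for Fst, 7 for Htra1, 6 for Ptpru, 5 for A2ml1, Cnr1 and Plekhh1, 3 for Rasd2 and Scx, 2 for Tgfb2 and 1 for Rflnb. The direction of the 14 genes did not change in any of these fits.

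**Figure D2:**
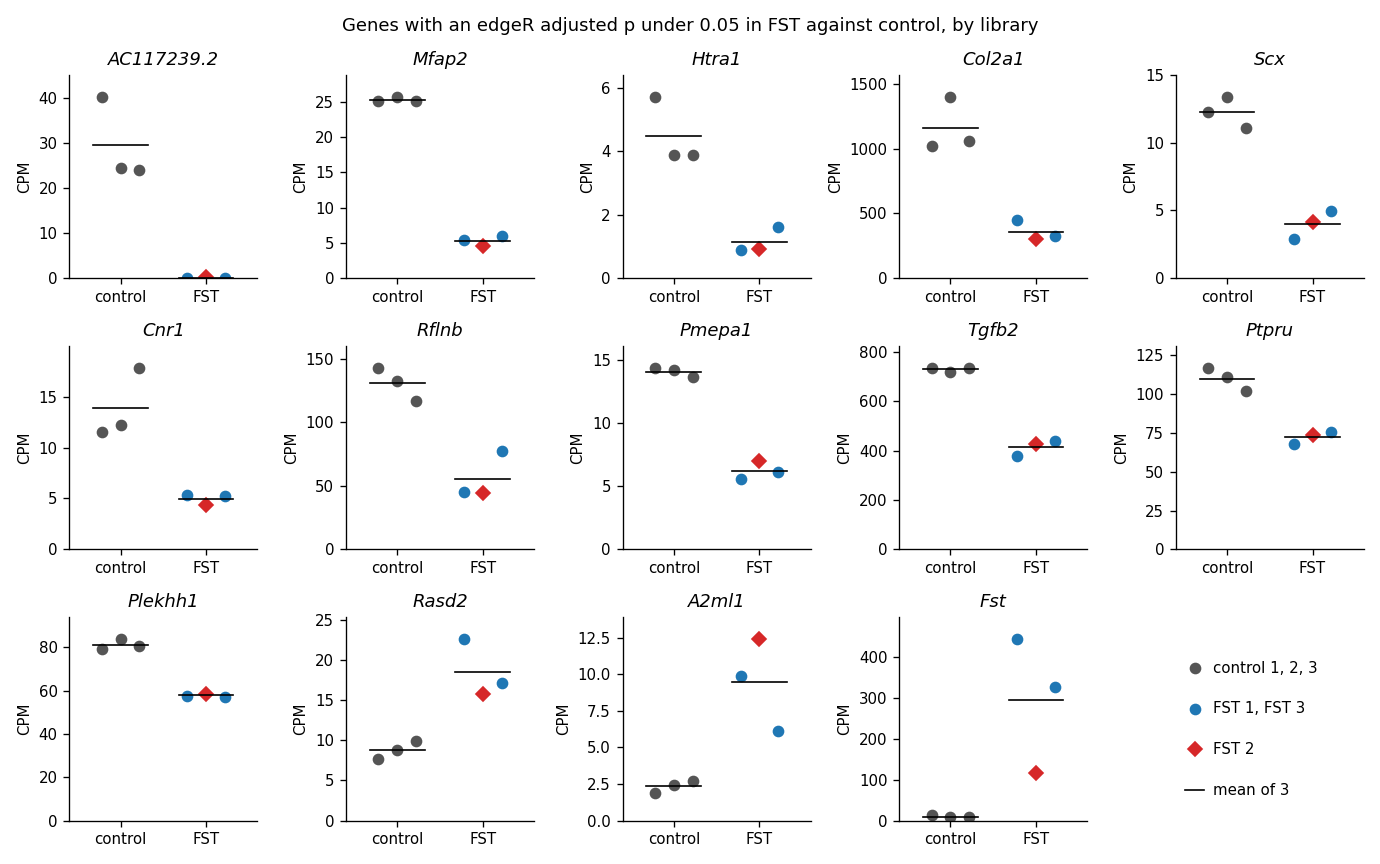
CPM of the 14 genes with an edgeR adjusted p under 0.05, by library, each panel on a linear axis from 0. Points are control libraries (gray), FST replicates 1 and 3 (blue) and FST replicate 2 (red diamond), and the bar is the mean of 3. In every panel the FST libraries lie wholly on one side of the controls, and FST replicate 2 is the lowest FST library for Fst and the highest for A2ml1.

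Promoter sequence is shown for lowered genes because receptor-activated SMADs are known to bind short motifs. The SMAD3 and SMAD4 box CAGAC and the GC-rich motif GGCGCC were searched on both strands (GTCTG is the reverse complement of CAGAC, and GGCGCC is its own) in the window from 250 bases before to 50 bases after each RefSeq transcription start (GRCm38.p6). Of the 14 genes, 9 had at least 1 such window, 12 windows in all. Of these windows 3 held no match, for Htra1, for Rflnb and for the second of the pair for Mfap2. Below are 4 with matches, 5′ to 3′ on the strand of the gene, with motif matches in capitals, from 1 to 3 matches each. The windows are chr4:141010174-141010473 for Mfap2 (the first of its pair), chr1:186705940-186706239 for Tgfb2, chr12:79028913-79029212 for Plekhh1 and chr4:131838229-131838528 for Ptpru. Mfap2 and Plekhh1 are on the plus strand and Tgfb2 and Ptpru on the minus strand.
Mfap2: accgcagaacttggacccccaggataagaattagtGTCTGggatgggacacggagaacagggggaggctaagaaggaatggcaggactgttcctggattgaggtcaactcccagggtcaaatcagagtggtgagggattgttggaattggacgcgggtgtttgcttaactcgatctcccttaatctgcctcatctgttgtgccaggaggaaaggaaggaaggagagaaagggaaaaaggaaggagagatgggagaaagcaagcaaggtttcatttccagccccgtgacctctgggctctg
Tgfb2: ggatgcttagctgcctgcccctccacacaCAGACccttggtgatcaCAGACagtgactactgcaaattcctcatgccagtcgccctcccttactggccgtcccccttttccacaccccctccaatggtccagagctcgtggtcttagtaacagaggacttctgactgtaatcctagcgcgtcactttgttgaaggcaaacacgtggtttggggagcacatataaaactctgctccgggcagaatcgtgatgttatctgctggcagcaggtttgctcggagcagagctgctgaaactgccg
Plekhh1: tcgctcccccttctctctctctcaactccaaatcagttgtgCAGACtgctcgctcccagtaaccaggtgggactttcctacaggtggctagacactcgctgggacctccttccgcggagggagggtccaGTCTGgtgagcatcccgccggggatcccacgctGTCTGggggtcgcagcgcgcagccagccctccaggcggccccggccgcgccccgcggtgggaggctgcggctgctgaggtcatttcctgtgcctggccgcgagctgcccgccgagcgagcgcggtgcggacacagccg
Ptpru: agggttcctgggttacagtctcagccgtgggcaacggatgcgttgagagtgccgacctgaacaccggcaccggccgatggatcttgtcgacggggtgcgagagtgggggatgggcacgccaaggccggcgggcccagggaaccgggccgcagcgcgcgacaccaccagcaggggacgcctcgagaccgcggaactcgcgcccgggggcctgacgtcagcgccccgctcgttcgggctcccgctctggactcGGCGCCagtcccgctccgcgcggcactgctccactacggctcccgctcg

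Among the 7 lower genes with a window, CAGAC was present for 4 (Mfap2, Tgfb2, Plekhh1 and Cnr1) and GGCGCC for 2 (Ptpru and Cnr1). The windows of Htra1 and Rflnb held neither motif. Both higher genes with a window, Rasd2 and A2ml1, held CAGAC, and Rasd2 also held GGCGCC. By window, 6 of the 12 held CAGAC and 4 held GGCGCC. Over all 32851 windows of 300 bases in the table, 49.6% held CAGAC and 11.9% held GGCGCC. The matches are a description of the letters and were not tested for binding.

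The pathway lists were read next, first the ligands. Of 20 ligand genes of the TGF-β superfamily that could be tested, Tgfb2 alone was called at 0.05, with a list median log2 fold change of 0.11 beside 0.04 over all genes. Inhba, the subunit of Activin A that FST binds as a dimer, had 36.2, 33.1 and 35.1 CPM in control and 47.5, 60.7 and 56.1 CPM in FST (0.65, SE 0.17, edgeR adjusted p = 0.38). All 3 FST libraries lay above the controls, but the gene did not pass. Bmp2, a BMP ligand gene, had 0.755, 1.02 and 0.977 CPM in control against 0.255, 0.238 and 0.303 CPM in FST (−1.78, SE 0.36, edgeR adjusted p = 0.17). Bmp4 overlapped, with 7.16, 4.75 and 5.81 CPM in control and 10.8, 4.92 and 8.53 CPM in FST.

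Receptors and SMADs come next in the pathway. None of 19 receptor and SMAD genes passed at 0.05, and none had FST libraries wholly above or below control. The type I receptor gene Tgfbr1 had 69.9 to 81.4 CPM in control and 75.2 to 88.4 CPM in FST. The type II receptor gene Acvr2b had 9.84 to 12.2 CPM in control and 8.93 to 14.5 CPM in FST. The list median was 0.02. Among 18 extracellular antagonists, 1 gene was wholly higher and 2 were wholly lower, and none passed.

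Intracellular feedback inhibitors of SMAD signaling were often below control. Of 14 such genes, 7 had all 3 FST libraries below all 3 controls and 0 had them above, where 2.91% of all genes were below. Pmepa1 alone was called by edgeR, and the list median was −0.17. By library the median difference from the control mean was −0.22 in FST replicate 1, −0.29 in replicate 2 and −0.18 in replicate 3, so the 3 FST libraries lay together here. The members named next, other than Pmepa1, were chosen after their values were seen. Skil, the gene of the SMAD corepressor SnoN, had 67.2, 68.1 and 70.4 CPM in control and 41.3, 37.3 and 47.8 CPM in FST (−0.70, SE 0.15, edgeR adjusted p = 0.19). Smad7, the inhibitory SMAD of the Activin and TGF-β branch, had 22.6, 20.2 and 16.5 CPM against 13.8, 13.0 and 13.0 CPM (−0.57, SE 0.12, edgeR adjusted p = 0.18).

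Ldlrad4, a membrane protein gene related to Pmepa1, had 7.36, 6.22 and 6.46 CPM in control and 2.63, 3.28 and 2.995 CPM in FST (−1.17, SE 0.21, edgeR adjusted p = 0.11). With DESeq2 the adjusted p was 0.00016 for Ldlrad4, 0.0034 for Skil and 0.0038 for Smad7. The other 3 wholly lower members were the inhibitory SMAD gene Smad6, the pseudoreceptor gene Bambi and the ubiquitin ligase gene Smurf2, with log2 fold changes of −0.29, −0.47 and −0.21. Those 3 did not pass at 0.05 with DESeq2. Of the remaining 7 members, Ski, Tgif1, Tgif2, Smurf1, Fkbp1a and Ppm1a lay between −0.14 and 0.26, and Zeb2 is described with the mesenchymal genes. FST+LIN28B against LIN28B, which shares no library with FST against control, called 5 members lower at 0.05 (0.857% of all genes were called lower there) and 0 higher.

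Response genes of the 2 SMAD branches did not pass. Of 19 SMAD2/3 response genes, 1 was wholly higher and 2 wholly lower, with a median of 0.02, and of −0.24 without FST replicate 2. By library its median difference from the control mean was −0.22, −0.06 and −0.10 in FST replicates 1, 2 and 3. In control replicates 1, 2 and 3 it was −0.01, −0.04 and 0.03. Of 12 SMAD1/5/9 response genes, 2 were wholly higher and 1 wholly lower, with a median of 0.34. This second list split by library, with medians of 0.40 and 0.38 in FST replicates 1 and 3 and −0.20 in replicate 2. The gene Id3, an inhibitor of bHLH factors that BMP signaling induces, illustrates this with 34.1, 25.5 and 21.02 CPM in control and 60.4, 23.8 and 56.7 CPM in FST. Id1, a related gene chosen after its values were seen, had 34.1, 28.5 and 23.9 CPM in control and 47.4, 19.2 and 58.3 CPM in FST. For both genes FST replicates 1 and 3 were above every control and replicate 2 was not.

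Matrix genes followed. Of 25 cartilage and tectorial membrane genes, 5 were wholly lower and 1 wholly higher, and Col2a1 was called. Col9a3, a type IX collagen chain gene, had 220, 227 and 195 CPM in control and 111, 77.6 and 139 CPM in FST (−0.97, SE 0.16, edgeR adjusted p = 0.081, and 0.0224 without FST replicate 2). Col11a2, a type XI chain gene, had 210, 278 and 231 CPM in control and 153, 104 and 160 CPM in FST (−0.78, SE 0.21, edgeR adjusted p = 0.46). Among genes chosen after their values were seen, the otoconial and otolith genes Oc90 and Otol1 were wholly lower as well, with log2 fold changes of −1.04 (SE 0.41) and −0.52 (SE 0.32), and Otogl, an otogelin-like gene of the acellular membranes, was wholly higher at 0.64 (SE 0.18). Tecta, the gene of α-tectorin, had 1316 to 2405 CPM in FST around the 1497 to 1705 CPM of the controls. The list median was −0.0037, and Oc90, Otol1, Otogl and Tecta did not pass. By library the median difference from the control mean was −0.19, −0.21 and −0.06 in FST replicates 1, 2 and 3.

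Among 21 microfibril and elastic fiber genes, 5 were wholly lower and 2 wholly higher, and Mfap2 was called. Fbn1 and Fbln5 were chosen after their values were seen. Fbn1, the fibrillin 1 gene, had 41.2, 29.1 and 30.1 CPM in control and 19.5, 18.9 and 24.4 CPM in FST (−0.68, SE 0.17, edgeR adjusted p = 0.32). Fbln5, the gene of an elastic fiber assembly protein, had 2.31, 2.04 and 1.74 CPM in control and 0.990, 0.713 and 0.791 CPM in FST (−1.28, SE 0.27, edgeR adjusted p = 0.18). The list median was −0.006, and by library the median difference from the control mean was −0.23, −0.17 and −0.03 in FST replicates 1, 2 and 3. Over 41 collagen chain genes the median was 0.02, with 5 wholly lower, Col2a1, Col9a3 and Col11a2 included, and 3 wholly higher. Ltbp1, which encodes a protein that tethers latent TGF-β to the matrix, had 113, 89.4 and 84.7 CPM in control and 71.9, 80.9 and 78.0 CPM in FST (−0.31, SE 0.13, edgeR adjusted p near 1).

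Of 21 mesenchymal genes, Scx alone had an edgeR adjusted p under 0.05, 3 were wholly lower and 2 wholly higher, with a median of −0.06. By library the median difference from the control mean was −0.31, −0.07 and −0.23 in FST replicates 1, 2 and 3. Mmp14, a membrane matrix metalloprotease gene, had 266, 301 and 260 CPM in control and 245, 206 and 248 CPM in FST (−0.24, SE 0.15). Prrx1, a mesenchymal homeobox gene, had 28.9 to 36.9 CPM in control, 17.9 and 20.1 CPM in FST replicates 1 and 3 and 38.0 CPM in FST replicate 2. Zeb2, an epithelial to mesenchymal transition factor gene, had 2.17 to 2.36 CPM in control, 1.58 and 1.31 CPM in FST replicates 1 and 3 and 6.78 CPM in replicate 2. Both genes had 1 FST library above the controls and 2 below. Twist1 and Zeb1 overlapped. The 6 mesenchyme markers summed to 12.9 to 13.6 CPM in control and 9.93 to 12.4 CPM in FST, with Col1a1, Col1a2, Pdgfra, Pou3f4, Tbx18 and Twist1 as the list, and 5 of 6 had a negative log2 fold change. Their part in the Scx result was not tested.

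Of the supporting cell and hair cell genes, only Rasd2 passed at 0.05 with all libraries. Of 30 supporting cell genes none was called, 3 were wholly higher and 2 wholly lower, with a median of 0.03. Lgr5, a Wnt-responsive receptor gene of supporting cells, had 157, 135 and 144 CPM in control and 74.0, 108 and 63.9 CPM in FST (−0.83, SE 0.19, edgeR adjusted p = 0.28, and 0.0451 without FST replicate 2). Igfbpl1, an insulin-like growth factor binding protein-like gene, had 10.7, 12.7 and 12.5 CPM in control and 36.7, 21.7 and 25.6 CPM in FST (1.23, SE 0.23, edgeR adjusted p = 0.13). S100a1 had 34.1, 33.4 and 29.8 CPM in control and 52.2, 33.9 and 80.5 CPM in FST, with FST replicate 2 inside the control range. Lfng and Sox2 overlapped between the groups.

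The hair cell transcription factor genes Atoh1, Pou4f3 and Gfi1 were at low levels, while the hair cell list summed to 335 to 396 CPM. Of 30 hair cell genes that passed the filter on low counts, out of 36 listed, 3 were wholly higher and 1 wholly lower. Rasd2 alone had an edgeR adjusted p under 0.05, and the median was 0.34 beside 0.04 over all genes. The log2 fold change was positive in 26 of the 30 and in 11638 of all 18780 genes. By library the median difference from the control mean was 0.25, 0.39 and 0.20 in FST replicates 1, 2 and 3. It was 0.15, −0.05 and 0.004 in control replicates 1, 2 and 3. Atoh1, which starts hair cell differentiation, had 0.319, 0.315 and 0.116 CPM in control and 0.431, 0.216 and 0.522 CPM in FST. Pou4f3 had at most 0.134 CPM in control and 0.236 CPM in FST, and Gfi1 at most 0.117 and 0.112. At such levels small differences between control and FST in these transcription factor genes could not be detected. Myo7a, a hair cell myosin gene, was wholly higher, with 5.00, 4.03 and 3.68 CPM against 5.22, 6.43 and 5.72 CPM (0.45, SE 0.20, edgeR adjusted p near 1).

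LIN28B itself was not induced, since Lin28b had 22, 21.2 and 24.5 CPM in control and 18.9, 22.05 and 16.9 CPM in FST. Targets of let-7, the microRNA family that LIN28B restrains, were higher in more members than lower without a call. Of 32 let-7 target genes, 7 were wholly higher and 1 wholly lower, where 4.73% and 2.91% of all genes were, and the median was 0.18. Hmga2, a chromatin factor gene and let-7 target, had 18.2, 16.7 and 15.2 CPM in control and 18.7, 29.1 and 22.01 CPM in FST (0.48, SE 0.15, edgeR adjusted p = 0.69). Trim71 had 11.0, 8.5 and 9.33 CPM in control and 13.7, 14.2 and 11.7 CPM in FST (0.45, SE 0.20). Cell cycle genes had a median of −0.02 over 45 members, with 1 wholly higher and 1 wholly lower.

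**Figure D3:**
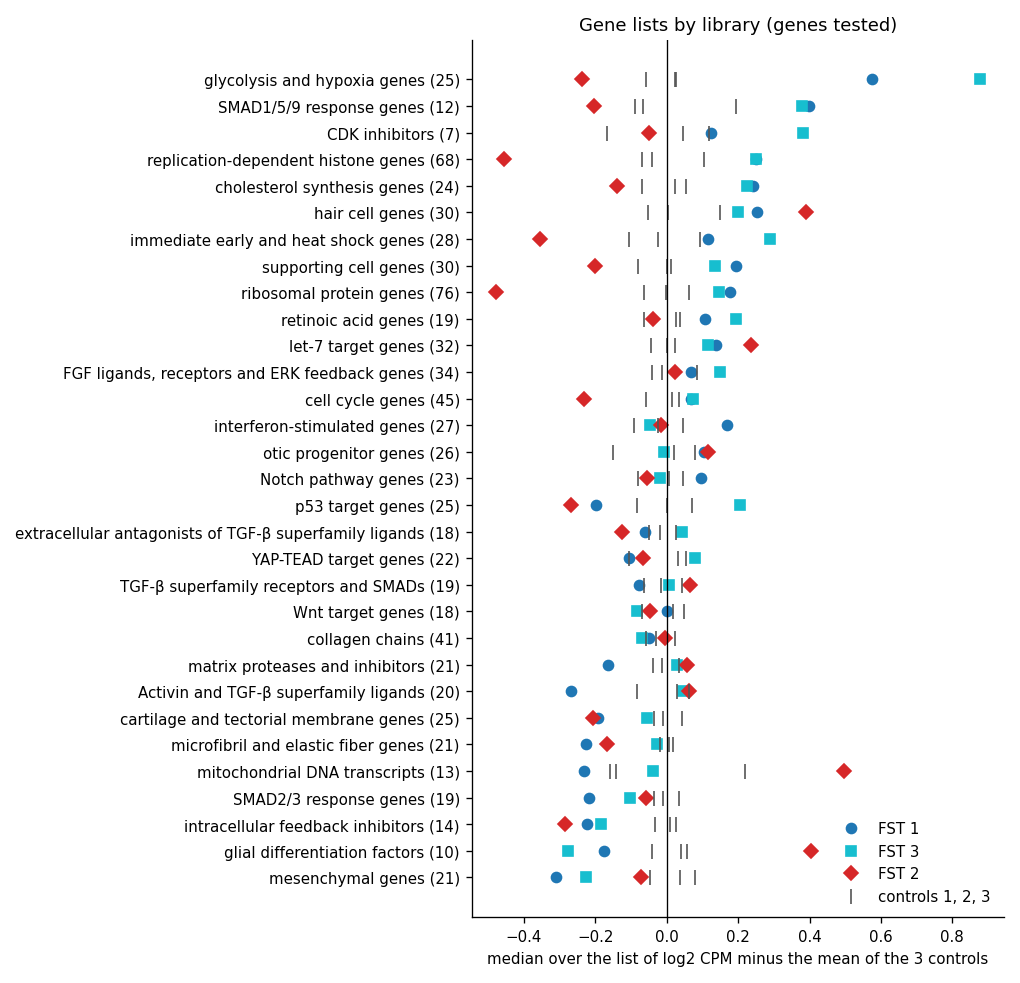
For each gene list, the median over its tested genes (number in parentheses) of log2 CPM minus the mean of the 3 controls, in FST replicates 1, 3 and 2 and, as gray ticks, in the 3 controls. The 3 FST points lie together for the intracellular feedback inhibitors, between −0.29 and −0.18. All 3 also lie below 0 for SMAD2/3 response, mesenchymal, cartilage and tectorial membrane, microfibril and elastic fiber, collagen chain and Wnt target genes. All 3 lie above 0 for hair cell genes, between 0.20 and 0.39, for let-7 target genes, between 0.11 and 0.24, and for the FGF list. For glycolysis and hypoxia, SMAD1/5/9 response, ribosomal protein and histone genes, FST replicate 2 lies on the other side of 0 from replicates 1 and 3.

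The comparison of FST+LIN28B with LIN28B asks the same question of the FST transgene in cells that also overexpress LIN28B, in separate libraries. It called 95 genes at 0.01 and 305 at 0.05, against 4 and 14 for FST alone. Leaving out LIN28B replicate 1 or 2 reduced the 95 to 42 or 36, and leaving out 1 of the FST+LIN28B libraries reduced it to between 32 and 59. It became 212 when FST replicate 2 was left out, a library outside that comparison that enters the shared estimate of spread and the filter on low counts (18986 in place of 18780 genes tested). Of the 14 genes, 12 had the same direction there with an adjusted p under 0.05, 9 lower and 3 higher (0.857% and 0.767% of all genes were called in those directions). Htra1 was −1.97 (SE 0.27) in FST against control and −3.68 (SE 0.29) in FST+LIN28B against LIN28B. Scx was −1.62 (SE 0.25) and −2.67 (SE 0.26), and Mfap2 −2.25 (SE 0.21) and −2.72 (SE 0.21). Tgfb2 was nearly equal in both, at −0.81 (SE 0.13) and −0.80 (SE 0.13). Fst itself was 4.94 (SE 0.54) and 4.97 (SE 0.54).

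The other 2 genes were Col2a1 and AC117239.2. Col2a1 was −1.69 (SE 0.19) in FST against control and −0.78 (SE 0.18, edgeR adjusted p = 0.060) in FST+LIN28B against LIN28B. AC117239.2 was −0.20 (SE 0.34) in the second comparison, with 22.3 to 28.3 CPM in all 6 libraries of LIN28B and FST+LIN28B. The difference between the 2 effects was tested as an interaction. AC117239.2 alone passed, at 0.01 and at 0.05 (8.21, edgeR adjusted p = 0.00083), while 672 genes had an unadjusted p under 0.05 and DESeq2 called 32 genes at 0.01. Without FST replicate 3 edgeR called 0 genes in the interaction at 0.01. For the other 13 genes the interaction was not significant, with Htra1 nearest (edgeR adjusted p = 0.39), which does not show that the effects were equal.

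**Figure D4:**
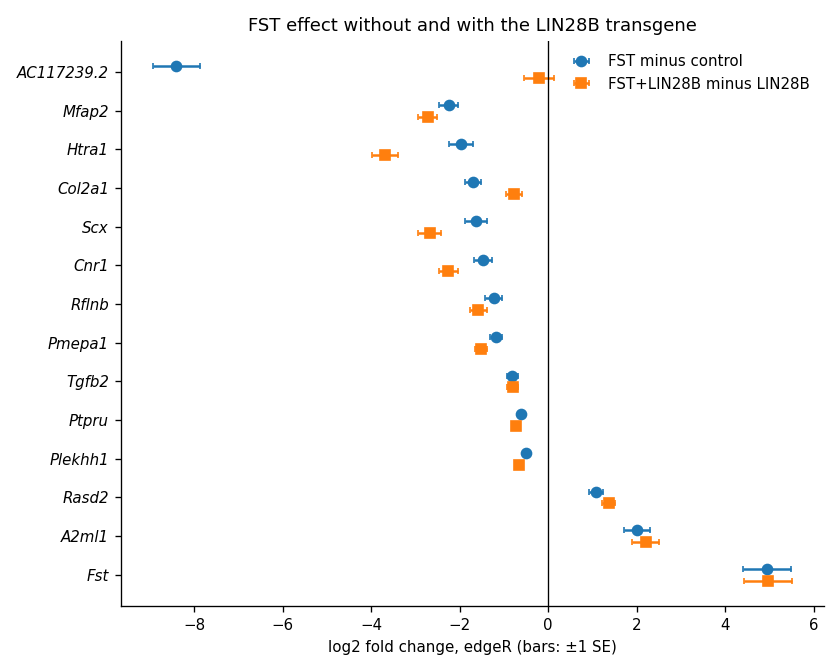
Log2 fold change with ±1 SE (edgeR) of the 14 genes past an adjusted p of 0.05 in FST against control, for FST minus control (blue circles) and for FST+LIN28B minus LIN28B (orange squares), which share no library. The pairs lie on the same side of 0, and AC117239.2 differs the most, at −8.40 and −0.20.

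Without FST replicate 2, edgeR called 3 genes at 0.01 and 25 at 0.05, 13 higher and 12 lower, and 3265 of 18986 genes (17.2%) had an unadjusted p under 0.05, against 702 (3.74%) with it. In a fit of control and FST libraries alone, 2 genes were called at 0.01 with FST replicate 2 and 28 without it, 15 higher and 13 lower. Some genes passed at 0.05 in the edgeR fit without it and not in the edgeR fit with it. With FST replicate 2 included, Gpx6, Abhd14b, Afap1l1 and Myo5c still passed at 0.01 by DESeq2 and by limma voom. Cdkn1c, Dusp4, Gstm1, Flywch2 and Shisa6 then passed at 0.01 by limma voom, which gave that library a low weight, and not by DESeq2. Gpx6, a glutathione peroxidase gene, had 3.15, 4.29 and 3.35 CPM in control, 12.3 and 12.6 CPM in FST replicates 1 and 3 and 5.25 CPM in replicate 2 (1.79 without it, edgeR adjusted p = 0.0196). Cdkn1c, the gene of the cell cycle inhibitor p57, had 23.5, 25.5 and 20.1 CPM in control, 47.3 and 40.6 CPM in FST replicates 1 and 3 and 24.3 CPM in replicate 2 (0.93, edgeR adjusted p = 0.0224). Dusp4, an ERK phosphatase gene, followed the same pattern with 17.8 to 19.8 CPM in control, 27.3 and 29.3 CPM, and 18.9 CPM in replicate 2.

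In Cdkn1c and Dusp4, FST replicate 2 lay inside the control range. Gstm1, a glutathione transferase gene, and Flywch2 also had replicate 2 at or below control levels, with 7.21 and 5.05 CPM. For Abhd14b, Afap1l1 and Myo5c it lay between the controls and the other FST libraries. Abhd14b, a hydrolase gene, had 19.8, 24.7 and 24.2 CPM in control and 38.8, 31.5 and 46.6 CPM in FST (0.90 without replicate 2, edgeR adjusted p = 0.0196). Shisa6, an AMPA receptor auxiliary subunit gene, had 1.86 to 3.42 CPM in control, 0.814 and 0.589 CPM in FST replicates 1 and 3 and 4.21 CPM in replicate 2.

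FST replicate 2 also differed from the other 5 libraries in genes that the FST label does not group. Of 11135 genes with a mean of at least 5 CPM over the 6 libraries, it lay above the other 5 by more than 1 on the log2 scale in 112 genes and below by more than 1 in 3. Each of the other 5 libraries did so for 0 to 5 genes in either direction. Dlx6, a homeobox gene, had 111 CPM there against 1.16 to 13.2 CPM elsewhere, and Tlr1, a toll-like receptor gene, 45.3 against 1.90 to 8.41. The mitochondrially encoded genes mt-Nd6 and mt-Nd5 had 108 and 650 CPM against 22.9 to 31.04 and 146 to 225. Of the 112 genes, 51 were olfactory or vomeronasal receptor genes (Olfr and Vmn), out of 66 such genes among the 11135, and 64 of those 66 lay above the other 5 libraries in FST replicate 2.

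Summed over 1740 annotated Olfr and Vmn genes, the level was 1794, 1427 and 1786 CPM in control and 1204, 3784 and 1077 CPM in FST. Transcripts annotated as retaining an intron held 5.08%, 4.47% and 4.90% of the counts in control and 4.15%, 6.59% and 3.75% in FST. FST replicate 2 was the highest of the 12 libraries on both measures. Ribosomal protein transcripts held 3.50% of its counts, the lowest of the 12, where the others had 4.33% to 4.99%. The median difference between annotated and effective length over long transcripts, which follows fragment length, was 145 bases in FST replicate 2 and 149 to 156 in the other libraries. These measures move with that library, and their part in its expression values was not tested.

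Without a limit on the gap, FST replicate 2 lay below the other 5 libraries in 5756 of the 11135 genes and above them in 2574. Lars2, the mitochondrial leucyl-tRNA synthetase gene, had 1344, 2923 and 1457 CPM in control and 3073, 425 and 3418 CPM in FST. Postn, the periostin gene, varied widely in every group, with 118, 28.2 and 38.4 CPM in control and 69.9, 4.12 and 12.6 CPM in FST. The processed pseudogenes Rpl15-ps3 and Rps24-ps3 had 55.5 and 57.4 CPM in FST replicate 2 and at most 0.202 CPM in the other 5 control and FST libraries, while Rpl15-ps2 had 1.92 CPM there and 15.03 to 18.6 in those 5. These levels were not particular to that library, since LIN28B replicate 3 had 60.2, 72.9 and 0.675 CPM of Rpl15-ps3, Rps24-ps3 and Rpl15-ps2, and the 3 FST+LIN28B libraries had 72.6 to 78.4 CPM of Rps24-ps3 and 0.575 to 0.926 CPM of Rpl15-ps2. Pseudogenes share reads with their parent genes and with each other, so these 3 values are uncertain.

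**Figure D5:**
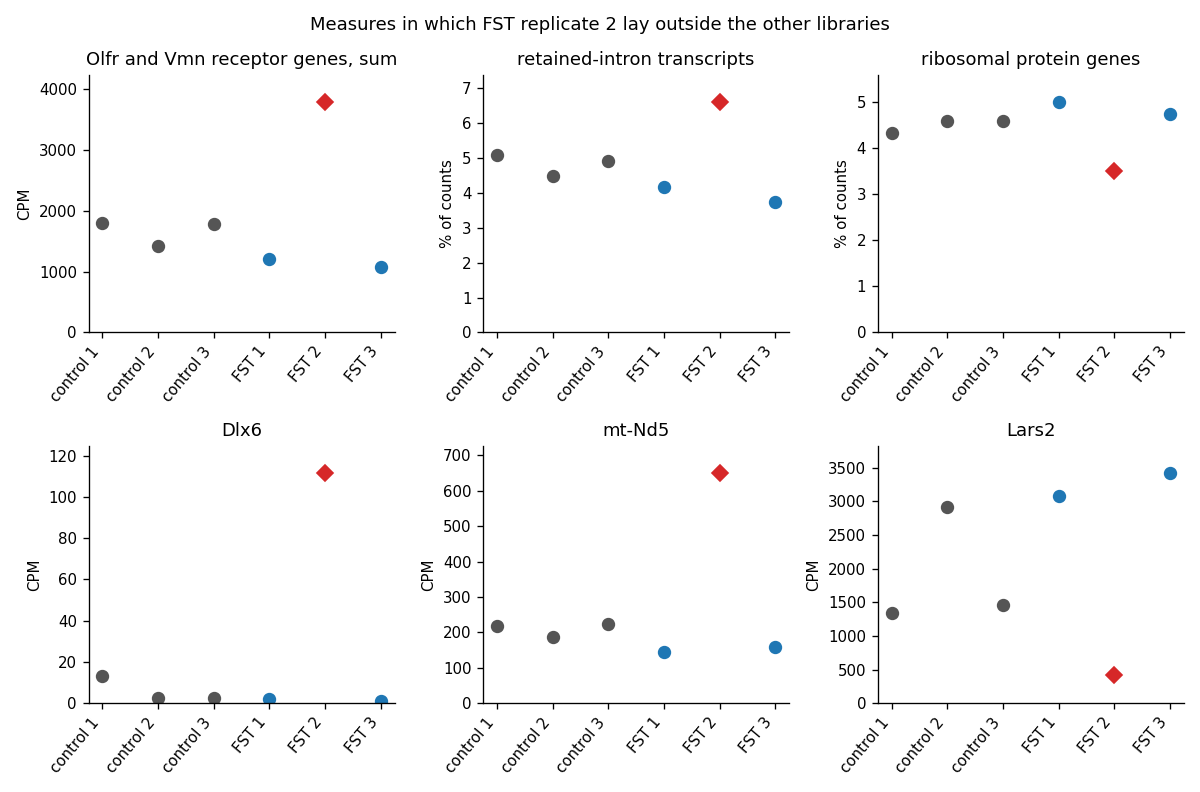
Levels by library, on linear axes from 0, of 3 library-wide measures (summed Olfr and Vmn receptor genes in CPM, percent of counts on retained-intron transcripts and on ribosomal protein genes) and 3 genes (CPM). Control libraries are gray, FST replicates 1 and 3 blue and FST replicate 2 a red diamond, which is the highest or the lowest of the 6 libraries in every panel.

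Glycolysis and hypoxia genes split the FST libraries. None of 25 was called and the median log2 fold change was 0.50, but by library the median difference from control was 0.58 in FST replicate 1, −0.24 in replicate 2 and 0.88 in replicate 3. Summed over the list, controls had 6727, 6905 and 6620 CPM and FST libraries 9653, 5027 and 11660 CPM. Slc16a3, a lactate transporter gene, had 26.4, 17.4 and 14 CPM in control and 83.5, 16.5 and 114 CPM in FST. Car9, a hypoxia-induced carbonic anhydrase gene, had 5.92, 5.40 and 4.77 CPM in control and 11.8, 6.05 and 35.7 CPM in FST. Ribosomal protein genes split the same way, with medians of 0.18, −0.48 and 0.15, as did histone genes with 0.25, −0.46 and 0.25. For all of these lists FST replicate 2 lay below the control mean and the other FST libraries above it.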

How the data were processed

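RNA was sequenced from 12 libraries of mouse cochlear organoids (TruSeq Stranded Total RNA, paired reads). Per the methods and the file headers, the authors pseudo-aligned reads with kallisto 0.46.1 to the Ensembl 96 mouse transcriptome (GRCm38) and deposited an estimated count and an effective length per transcript and library, with no replicates pooled. Deposited TPM values were not used. How kallisto treated strand is not given in the sources used here.

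Estimated counts of 118489 transcripts were summed per gene by the annotation and rounded to whole numbers. Of these transcripts, 1673 matched no gene and stayed out, with 0.543% to 0.598% of the counts. Genes kept by filterByExpr (minimum count 10 and total 15) were tested with edgeR 4.0.16 (TMM, robust quasi-likelihood F test) in 1 fit of 4 conditions over 12 libraries, with Benjamini-Hochberg adjustment over 18780 genes and a call at 0.01. The study's own test, sleuth, was not used here. The interaction is the FST effect with LIN28B minus that without. Single values per library were compared by two-sided exact permutation tests. On data simulated for FST against control over 18780 genes, edgeR recovered 8%, 68%, 88% and 92% of genes changed 1.5-, 2-, 4- and 8-fold, with 1 false call. The changed genes had a mean of at least 1 CPM, and all 12 simulated libraries scattered independently around the same gene means. None stood apart as FST replicate 2 does, so recovery in the real comparison can be lower and the number of false calls can differ.

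Members and gene lists were chosen with earlier results of these data known. Named genes were Fst and Lin28b, genes past an adjusted p of 0.01 or 0.05, up to 4 genes of smallest p in each list, genes the study names, genes with the widest gap between FST replicate 2 and the other libraries, and genes past 0.05 without that library. Others are marked as chosen after their values were seen. Alternatives used DESeq2 1.42.0, limma 3.58.1 (voom weights, and log2 of TPM, recomputed from the counts and effective lengths, plus 1 or 0.1), other scalings, filters and samples, a replicate term, a covariate for Y-linked genes, and each library left out. Promoter windows came from RefSeq (GRCm38.p6).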

Additional observations from a re-analysis of the deposited data

Results flagged for a closer look

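AC117239.2 had a different FST effect with and without LIN28B. The log2 effect was −8.40 (SE 0.54) in FST against control and −0.20 (SE 0.34) in FST+LIN28B against LIN28B, and the difference of 8.21 had an edgeR adjusted p of 0.00083. The libraries had 40.2, 24.4 and 23.9 CPM in control, 0, 0.216 and 0.0673 CPM in FST, 28.3, 24.3 and 28.1 CPM in LIN28B and 22.3, 25.4 and 22.7 CPM in FST+LIN28B. Only the 3 FST libraries were near 0 among the 12. The summed level with Hspe1, with which 68.9% of its 31-base words are shared, was 73.2 to 130 CPM in FST and 99.3 to 117 CPM in control.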

How the results depend on the processing

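FST against control called 4 genes at an edgeR adjusted p of 0.01. It called 69 with DESeq2, 104 with limma voom weights, 14 at a threshold of 0.05, 2 with only the libraries of both conditions, 2 with Y-linked genes as a covariate, 28 with only control and FST libraries and without FST replicate 2, and 1 to 5 with each library left out. FST+LIN28B against LIN28B called 95 genes, and 451, 701, 305 and 60 with DESeq2, voom weights, the threshold of 0.05 and the covariate, and 32 to 212 with each library left out. The interaction called 1 gene, 32 with DESeq2, 7 with voom weights, 0 with counts rescaled for transcript length, 0 with limma on log2(TPM + 0.1), 0 with the replicate block, and 0 to 1 with each library left out. The causes were not tested. Same-numbered control and FST libraries had correlations of their deviations of −0.209, −0.391 and −0.030, and differently numbered ones of −0.265 to 0.307. The numbers thus showed no sign of pairing. With deviations taken from a mean of 3 libraries, these correlations cannot tell whether libraries shared a litter or a batch. With the replicate block 4 genes were called in FST against control, 1 higher and 3 lower, 5 at a threshold of 0.05 in place of 14, and 65 in FST+LIN28B against LIN28B.

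None of the 14 genes past 0.05 changed sign in 392 values, and 44 of 600 list medians moved by more than the spread between replicates. Of those medians, 12 moved without FST replicate 2 and another 12 with only control and FST libraries and without FST replicate 2. Of the other named genes, some with small effects turned sign. Acvr2b was −0.0047 with a filter of 5 counts, −0.0044 with the replicate block, −0.23 with voom weights and −0.26 with only control and FST libraries and without FST replicate 2, and Sox2 was −0.0046 with library size alone, −0.0125 and −0.0128 in limma fits of TPM on the log2 scale with 1 and 0.1 added. Tecta was −0.0048 with the replicate block, −0.0258 and −0.0261 with those limma fits, −0.29 with voom weights and −0.32 with only control and FST libraries and without FST replicate 2, and Zeb2 was −0.0266 with limma on log2(TPM + 0.1), −0.59 and −0.68 in the last 2 settings. With each library left out the log2 fold change ran from −0.24 to 0.12 for Acvr2b, −0.00068 to 0.69 for Gfi1, −0.042 to 0.38 for Id2, −0.16 to 0.21 for Sox2, −0.30 to 0.17 for Tecta, −0.66 to 0.11 for Zeb1 and −0.67 to 0.83 for Zeb2. With 3 libraries a condition, changes under 2-fold were mostly below the reach of the test in simulated data, which held no library like FST replicate 2. Gfi1 and Pou4f3 were near 0 CPM in control and FST, too low to resolve small differences. Pou4f3 was readable at this depth where it was higher, with 3.45, 6.27 and 3.45 CPM in FST+LIN28B.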
